A study of Mus musculus with 6 samples.

Results

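The sirtuins are the NAD-dependent protein deacylases, and the mouse genome encodes 7 of them, *Sirt1* to *Sirt7*. All 7 were taken by gene symbol, each matched 1 of the 32493 genes of the count table, and all 7 passed the filter on low counts that left 16710 genes to test. The question was how their mRNAs differed between neural stem cells (NSCs) with and without miR-151. RNA-seq had been run on NSCs of C57BL/6J embryos at E14.5, taken from the wall of the lateral ventricles and grown in medium with EGF and bFGF for 3 generations. All embryos carried floxed miR-151 alleles (miR-151 fl/fl). The cko embryos also carried Emx1-IRES-Cre, which recombines in the dorsal telencephalon, whereas the ctrl embryos, called wt in the labels, carried no Cre. In bulk RNA, fewer cells of a type and less RNA per cell cannot be told apart.

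There were 3 cko libraries and 2 independent ctrl libraries, ctrl 1 and ctrl 3. The column of ctrl 2 equalled the mean of ctrl 1 and ctrl 3, rounded up, in 32493 of 32493 genes, and was counted in no n. The 5 libraries held 17883796 to 23335736 counts. The cko and ctrl embryos were littermates, but which library came from which embryo or litter, and whether embryos were pooled, was not given, so the p-values measure the spread between these libraries, which may be technical. Values per library are given as CPM, counts scaled to a common library size by TMM factors. *Ptk2*, the host gene of the deleted miRNA, stood at 133 and 149 CPM in ctrl and at 142, 138 and 140 CPM in cko NSCs, which checks nothing of the deletion itself. *Xist*, the RNA of the inactive X chromosome, stood at 2886 and 2554 CPM in ctrl and at 786, 848 and 893 CPM in cko NSCs, and the Y-linked *Kdm5d* at 25.0 and 27.0 against 68.9, 69.1 and 67.5 CPM. These sex-linked transcripts thus differed between the genotypes, and for every gene a different mix of sexes and the genotype cannot be told apart. No sirtuin gene is on a sex chromosome.

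Sirtuins couple the removal of acetyl and other acyl groups from lysine to the use of NAD, and so link protein acylation to the metabolic state of the cell. SIRT1, SIRT6 and SIRT7 are mainly nuclear, SIRT2 is mainly cytosolic, and SIRT3, SIRT4 and SIRT5 are mitochondrial. In the brain, SIRT2 is known as an α-tubulin deacetylase that is abundant in oligodendrocytes and myelin, and SIRT1 as a chromatin and transcription factor deacetylase studied in neural progenitors.

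*Sirt2* was the most abundant sirtuin of the NSCs, and it fell 2.36-fold in cko NSCs. *Sirt3* was also lower, by 1.46-fold, while the other 5 sirtuins did not pass the threshold. With an adjusted p under 0.05 (edgeR, quasi-likelihood test) as the threshold, 2 of 7 sirtuins were lower and 0 of 7 higher in cko NSCs, where 8.57% of all tested genes were lower, 7.86% higher and 16.4% called in either direction. At an unadjusted edgeR p under 0.05, *Sirt1* was higher and *Sirt2*, *Sirt3* and *Sirt5* were lower. The share of all tested genes at that threshold was not counted, so these calls are no result about the family. DESeq2 at an adjusted p under 0.05 called 0 sirtuins higher and *Sirt2*, *Sirt3* and *Sirt5* lower. Over all genes DESeq2 called 1581 higher and 1703 lower of 16710. At the threshold of the study's methods, a log2 fold change beyond 0.9 with an unadjusted p under 0.01, *Sirt2* alone was called, where 4.17% of tested genes were called lower. The ctrl and cko libraries did not overlap for 5 of 7 sirtuins, against 49.7% of all tested genes, so that a gap between 2 and 3 libraries was common in these data. The median log2 fold change of the 7 was -0.17, beside -0.0026 over all tested genes.

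**Figure D1:**
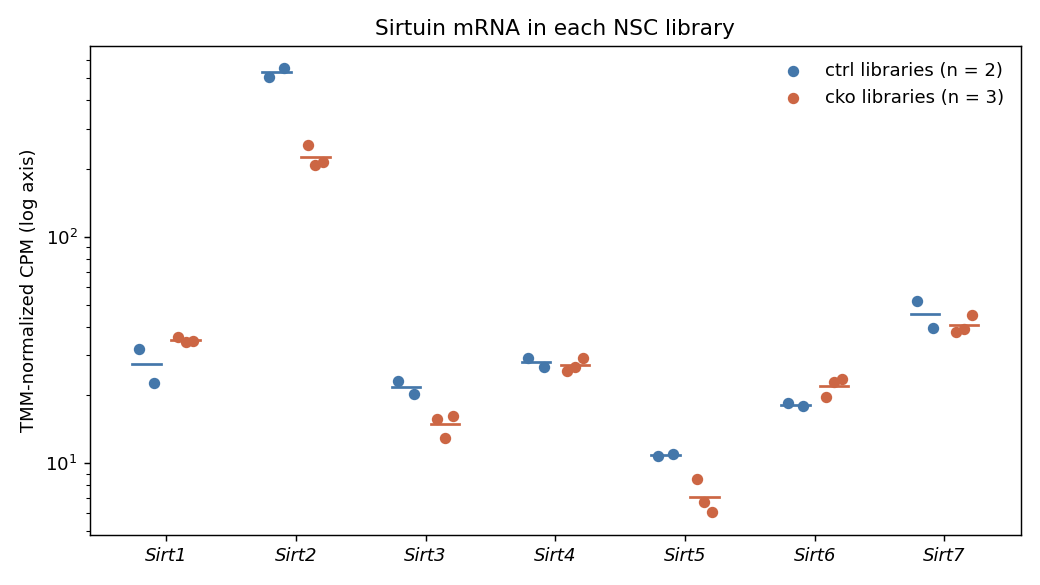
TMM-normalized CPM (log axis) of the 7 sirtuins, 1 point per library and a line at the mean of each genotype (blue, 2 ctrl libraries; orange, 3 cko libraries). The cko points of *Sirt2* lie at 207 to 254 CPM, below both ctrl points at 507 and 555 CPM, while the points of *Sirt4* and *Sirt7* overlap.

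*Sirt2* (ENSMUSG00000015149), the cytosolic member, lies on chromosome 7 at 28766735 to 28788661 on the plus strand of GRCm38. It was measured at 507 and 555 CPM in ctrl 1 and ctrl 3, and at 254, 207 and 215 CPM in cko 1, cko 2 and cko 3. Both ctrl libraries were higher than every cko library, and cko 1 was the highest of the cko libraries. The means were 531 ± 33.9 CPM (SD, n = 2) in ctrl and 225 ± 25.1 CPM (SD, n = 3) in cko NSCs. The log2 fold change was -1.24 with a standard error of 0.10 and a 95% interval of -1.48 to -0.99, and the adjusted p in edgeR was 0.0011. The raw counts behind these values ran from 4539 to 11623 per library. *Sirt2* kept its call in 13 of 13 alternative analyses, with log2 fold changes of -1.34 to -1.17.

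*Sirt3* (ENSMUSG00000025486; chromosome 7, 140863666 to 140882309, minus strand) encodes the main deacetylase of the mitochondrial matrix. It was at 23.1 and 20.3 CPM in ctrl and at 15.7, 12.9 and 16.1 CPM in cko NSCs, with no overlap between genotypes. The log2 fold change was -0.54 with a standard error of 0.14 and a 95% interval of -0.87 to -0.22, and the edgeR adjusted p was 0.039. This call was close to the threshold. The edgeR adjusted p rose to 0.076 without cko 1, 0.14 without cko 2 and 0.099 without cko 3, at log2 fold changes of -0.61 to -0.46. Without ctrl 1 the log2 fold change was -0.46. The call was made in 8 of 13 alternatives, whose adjusted p ran from 0.00042 to 0.14. Every analysis that counted the column of ctrl 2 as a sample made the call, but such analyses add no independent library. The lowest adjusted p came from DESeq2 with that column.

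*Sirt5* (ENSMUSG00000054021; chromosome 13, 43365496 to 43395203, plus strand), the mitochondrial desuccinylase, had the lowest level of the family. It stood at 10.8 and 10.9 CPM in ctrl and at 8.50, 6.77 and 6.06 CPM in cko NSCs. All cko libraries were under both ctrl libraries. The log2 fold change of -0.61 had a 95% interval of -1.04 to -0.19, with an edgeR adjusted p of 0.061. DESeq2 on the same libraries gave an adjusted p of 0.028, and without cko 1 the edgeR adjusted p was 0.047, so the call of *Sirt5* depended on the analysis. It was called in 6 of 13 alternatives, with adjusted p of 0.0024 to 0.20. Every analysis that counted the column of ctrl 2 as a sample made this call, but such analyses add no independent library. The lowest adjusted p came from DESeq2 with that column.

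*Sirt4* (ENSMUSG00000029524; chromosome 5, 115478010 to 115484725, minus strand), a mitochondrial lipoamidase and ADP-ribosyltransferase, stood at 29.1 and 26.6 CPM in ctrl and at 25.7, 26.7 and 29.1 CPM in cko NSCs. The genotypes overlapped. The log2 fold change was -0.04, and its 95% interval of -0.28 to 0.20 leaves room for a fold of 0.82 to 1.15. The edgeR adjusted p was 0.83. Of the mitochondrial members, *Sirt3* and *Sirt5* thus had intervals below 0 and *Sirt4* had an interval that held 0, and differences between these members were not tested.

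Among the nuclear members, *Sirt1* (ENSMUSG00000020063; chromosome 10, 63319005 to 63381704, minus strand), a histone and transcription factor deacetylase, stood at 31.9 and 22.7 CPM in ctrl and at 36.2, 34.4 and 34.5 CPM in cko NSCs. The cko libraries lay close together and above both ctrl libraries, which were far apart. The log2 fold change was 0.36 with a 95% interval of 0.016 to 0.70, and the edgeR adjusted p was 0.14. The value depended on the ctrl library: without ctrl 1 the log2 fold change was 0.62 with an edgeR adjusted p of 0.0055, and without ctrl 3 it was 0.14. Over the 13 alternatives the adjusted p ran from 0.0055 to 0.39, and *Sirt1* was called in 4.

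*Sirt6* (ENSMUSG00000034748; chromosome 10, 81621785 to 81627797, minus strand), which acts on histone H3 at telomeres and in DNA repair, stood at 18.4 and 17.8 CPM in ctrl and at 19.7, 22.7 and 23.6 CPM in cko NSCs. No cko library was as low as a ctrl library, yet the log2 fold change of 0.28 had a 95% interval of -0.0022 to 0.57 and an edgeR adjusted p of 0.16. *Sirt7* (ENSMUSG00000025138; chromosome 11, 120618372 to 120625240, minus strand), a nucleolar member linked to ribosomal RNA transcription, stood at 51.8 and 39.6 CPM in ctrl and at 38.0, 39.2 and 44.9 CPM in cko NSCs. Its libraries overlapped, ctrl 1 was the highest of the 5, and the log2 fold change was -0.17 (95% interval -0.48 to 0.14, edgeR adjusted p = 0.42). Without ctrl 1, *Sirt7* turned to 0.031 and *Sirt4* to 0.017 on the log2 scale.

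Levels can be compared between genes only per length, so CPM was divided by the kilobases of annotated exon of each gene (CPM per kb). On that scale the order of mean levels was *Sirt2*, *Sirt4*, *Sirt7*, *Sirt6*, *Sirt1*, *Sirt3* and *Sirt5*, from high to low, in ctrl and in cko NSCs. *Sirt2* stood at 106 ± 6.73 CPM per kb (SD, n = 2) in ctrl and 44.7 ± 4.99 CPM per kb (SD, n = 3) in cko NSCs, while *Sirt4*, the next, stood at 11.6 ± 0.74 and 11.3 ± 0.73 CPM per kb. At the other end, *Sirt5* had 1.78 ± 0.017 CPM per kb in ctrl and 1.17 ± 0.21 CPM per kb in cko NSCs. In ctrl NSCs the ranges of neighbours in this order did not overlap, although the gaps were small between *Sirt6* and *Sirt1* (6.39 against 5.99 CPM per kb) and between *Sirt1* and *Sirt3* (4.26 against 3.86 CPM per kb). In cko NSCs *Sirt7* and *Sirt6* overlapped and their means were both 7.91 CPM per kb. With the length of the longest transcript instead, *Sirt1* and *Sirt3* changed places in ctrl NSCs, and the order in cko NSCs was kept. With no length, only *Sirt2* and *Sirt5* kept their rank in both genotypes.

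The fall of *Sirt2* changed the make-up of the family. Per length, *Sirt2* made up 71.3% and 76.1% of all sirtuin mRNA in ctrl 1 and ctrl 3, and 58.4%, 52.9% and 51.9% in cko 1, cko 2 and cko 3. The shares did not overlap, with means of 73.7 ± 3.35% (SD, n = 2) and 54.4 ± 3.48% (SD, n = 3), and *Sirt2* remained the largest share in each of the 5 libraries. Summed over the 7 genes, sirtuin CPM was 672 and 693 in ctrl and 397, 350 and 369 in cko NSCs. Without *Sirt2* the sum of the other 6 was 165 and 138 CPM in ctrl against 144, 143 and 154 CPM in cko NSCs, and there the genotypes overlapped. A share rises when another member falls, so the larger shares of *Sirt4* (8.14% in ctrl and 13.8% in cko NSCs) and *Sirt6* (4.55% and 9.67%) are not separate results.

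**Figure D2:**
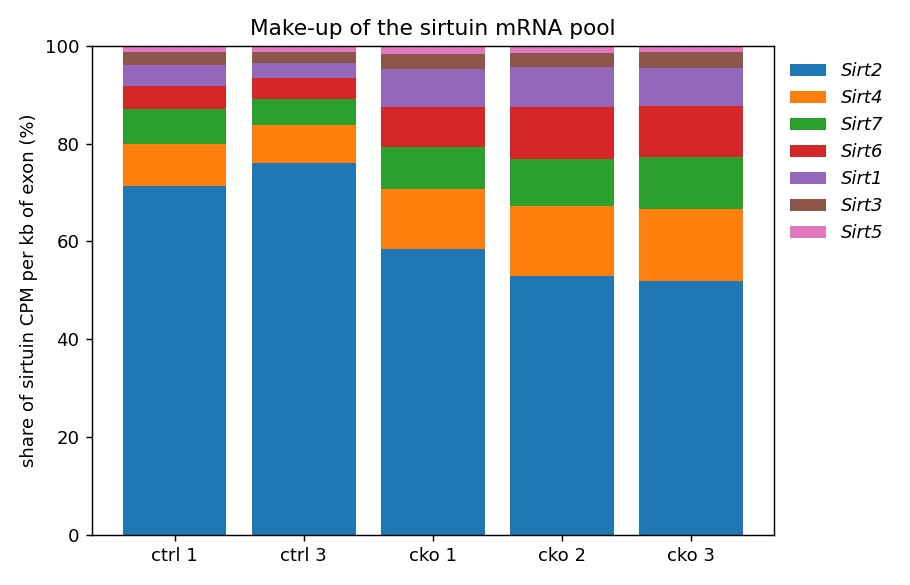
Stacked bars of the share (%) of each sirtuin in the summed CPM per kb of the 7 sirtuins, 1 bar per library. The *Sirt2* block reaches 71.3% and 76.1% in the ctrl bars and 51.9% to 58.4% in the cko bars, and each other block is smaller than the *Sirt2* block in every bar.

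Several sirtuin genes share sequence with a neighbour. As the strand setting of the counting was not given, reads from overlapping exons cannot be assigned with certainty. *Sirt2* starts head to head with *Nfkbib*, which encodes the NF-κB inhibitor IκBβ, and the genes share 42 bases of annotated exon on opposite strands. *Nfkbib* stood at 25.5 and 22.8 CPM in ctrl and at 19.1, 20.8 and 17.9 CPM in cko NSCs (log2 fold change -0.33, 95% interval -0.60 to -0.050, edgeR adjusted p = 0.10). How many reads of the shared bases were counted to either gene was not tested. *Rinl*, a gene related to Ras and Rab interactors, begins 307 bases beyond the end of *Sirt2* on the same strand. It had 60 and 53 counts in ctrl and 6, 4 and 10 counts in cko NSCs and was lower by a log2 fold change of -3.07 (edgeR adjusted p = 0.0044).

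*Sirt3* shares 342 exonic bases with *Psmd13*, a proteasome subunit gene that starts on the opposite strand, and 418 exonic bases with *Ric8a*, a G protein chaperone gene at its other end. *Psmd13* stood at 84.2 and 85.7 CPM in ctrl and at 101, 100.4 and 98.4 CPM in cko NSCs (log2 fold change 0.23, edgeR adjusted p = 0.058). *Ric8a* stood at 59.1 and 57.4 CPM in ctrl and at 48.6, 50.1 and 49.3 CPM in cko NSCs (log2 fold change -0.24, edgeR adjusted p = 0.065). Both neighbours had more reads than *Sirt3*, and neither was called. *Mafg*, a small Maf transcription factor gene that shares 124 exonic bases with *Sirt7* on the same strand, fell from 129 and 142 CPM to 96.4, 98.3 and 101 CPM (log2 fold change -0.46, edgeR adjusted p = 0.0083). The other tested neighbours within 1000 bases, *Dnajc12* at *Sirt1*, *Ankrd24* at *Sirt6* and *Pcyt2* at *Sirt7*, had log2 fold changes of 0.24, -0.45 and 0.24 with edgeR adjusted p of 0.50, 0.084 and 0.30. The annotation also places *Gm16145*, an antisense gene that shares 65 exonic bases with *Sirt1*, and *Mir6936*, which lies in 54 exonic bases of *Sirt7*, and neither was analysed here.

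**Figure D3:**
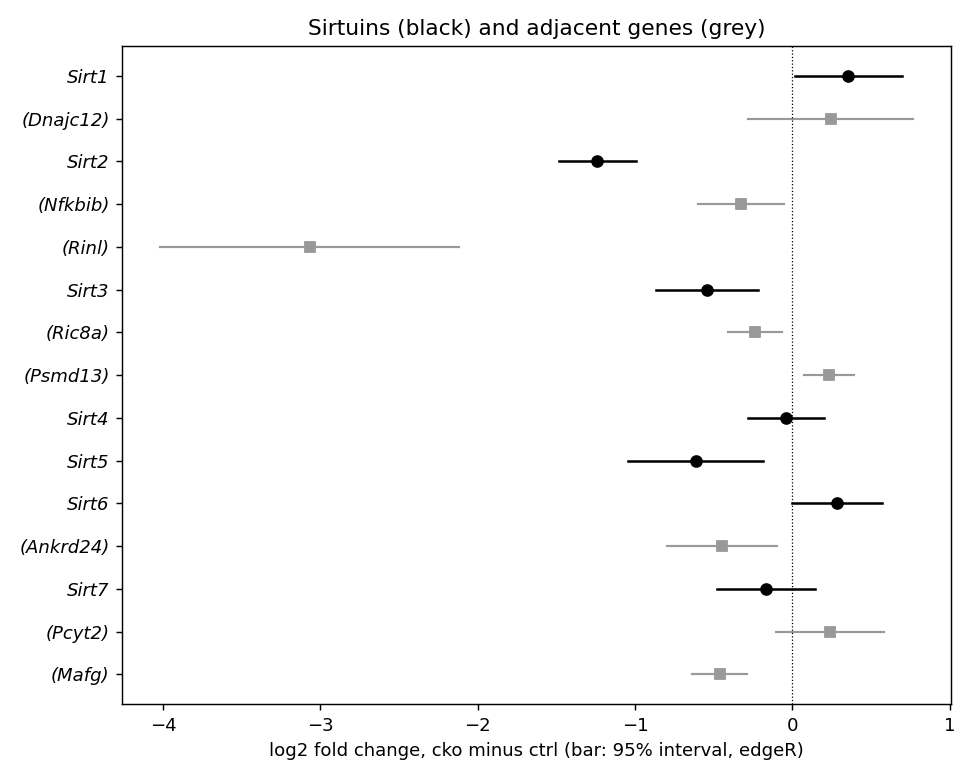
log2 fold change of cko minus ctrl with its 95% interval for each sirtuin (black circles) and, under it, the tested genes that overlap it or lie within 1000 bases (grey squares, names in brackets). The interval of *Sirt2* lies between -1.48 and -0.99, and that of its head-to-head neighbour *Nfkbib* between -0.60 and -0.050.

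The start regions of the called sirtuins are shown because each is shared with a gene that was not called. They are RefSeq windows of 250 bases before and 50 bases from the start, on GRCm38.p6. The window of *Sirt2* is chr7:28766502-28766801 on the plus strand, where RefSeq starts *Nfkbib* 108 bases upstream on the other strand. Of 2 RefSeq windows of *Sirt3*, the one shown is chr7:140882260-140882559 on the minus strand, where *Psmd13* starts 85 bases upstream on the other strand. A start this close was not particular to the called sirtuins, as RefSeq starts *Gm42007* 153 bases from *Sirt4* on the other strand. Capitals mark the bases from the neighbour's start to the sirtuin's start.
Sirt2: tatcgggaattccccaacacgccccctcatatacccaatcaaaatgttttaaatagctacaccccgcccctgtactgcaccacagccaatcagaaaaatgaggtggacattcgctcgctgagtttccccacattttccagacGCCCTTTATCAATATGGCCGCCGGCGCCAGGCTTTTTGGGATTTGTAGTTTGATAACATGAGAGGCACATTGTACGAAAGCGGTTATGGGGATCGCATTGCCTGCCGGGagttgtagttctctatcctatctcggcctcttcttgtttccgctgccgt
Sirt3: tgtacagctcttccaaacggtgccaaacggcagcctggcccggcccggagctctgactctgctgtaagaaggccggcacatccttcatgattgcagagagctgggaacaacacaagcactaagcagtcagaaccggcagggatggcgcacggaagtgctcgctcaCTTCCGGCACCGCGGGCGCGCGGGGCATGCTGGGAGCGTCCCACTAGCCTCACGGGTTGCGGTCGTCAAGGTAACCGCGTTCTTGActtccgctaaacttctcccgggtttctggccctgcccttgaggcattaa

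The letters CTACAANTC, the core of a motif of the factor ZNF143 (GANTTGTAG on the other strand), occurred 2 times in the *Sirt2* window, 1 of them wholly inside the capitals and the other beginning at the start base itself. Of 32851 RefSeq windows of the same length, 1.42% held this core at least once and 0.0731% at least 2 times. Among the other sirtuin windows, that of *Sirt4* held it 1 time. The *Sirt2* window also held 2 CCAAT boxes (CCAAT or ATTGG), found at least 2 times in 11.7% of windows, and 1 GC box (GGGCGG or CCGCCC), found in 35.7%. The *Sirt3* window shown held none of these, but the other *Sirt3* window held 1 CCAAT box and 4 GC boxes. The *Sirt3* window shown was 61.0% G and C, and the *Sirt2* window 50.0%. The window of *Sirt1*, with 7 GC boxes and 2 E-boxes (CACGTG), was 79.0%. The motifs were chosen after the sequences had been read, and a match is a description of letters only.

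*Sirt2* is an oligodendrocyte-rich transcript, and most tested oligodendrocyte markers fell with it, 13 of 17 having negative log2 fold changes. This was not particular to that lineage, as 10 of 10 astrocyte markers had negative log2 fold changes, with a median of -1.09. Of 20 listed oligodendrocyte markers, 17 were tested, 12 were lower and 2 higher in cko NSCs, beside 8.57% and 7.86% of all tested genes. Their median log2 fold change was -1.12. Markers of myelin formation were among those that fell, although *Mog*, at 1.22 and 2.19 CPM in ctrl and at 1.397, 2.23 and 1.24 CPM in cko NSCs, was not. *Myrf*, the transcription factor of myelination, stood at 100.4 and 90.1 CPM in ctrl and at 14.6, 11.5 and 12.2 CPM in cko NSCs. *Mbp*, a myelin protein gene, stood at 139 and 238 CPM in ctrl and at 10.5, 9.29 and 11.8 CPM in cko NSCs. *Sox10*, expressed throughout the lineage, stood at 161 and 189 CPM in ctrl and at 54.4, 41.2 and 45.3 CPM in cko NSCs, a log2 fold change of -1.90 (edgeR adjusted p = 0.00067). The early factors *Olig1* and *Olig2* rose instead, with log2 fold changes of 0.63 and 0.38 (edgeR adjusted p = 0.011 and 0.044). *Mag* had 84 and 48 counts in ctrl and 0, 2 and 0 counts in cko NSCs, and *Mobp*, with 3 and 5 counts in ctrl, was at 0 in all cko libraries. *Ermn*, also too low to test, went the other way, with 1 and 1 counts in ctrl and 4, 6 and 7 counts in cko NSCs. The progenitor markers *Pdgfra* and *Cspg4* had log2 fold changes of 0.45 and 0.24 and were not called (edgeR adjusted p = 0.094 and 0.59). Summed over the whole list, which *Olig1* and *Olig2* dominate, the level was 4457 and 5134 CPM in ctrl and 3911 to 4022 CPM in cko NSCs.

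*Sirt2* fell less than *Sox10* and more than *Cnp*, an enzyme gene of oligodendrocytes. The ratio of *Sirt2* to *Sox10* CPM was 3.14 and 2.93 in ctrl and 4.67, 5.02 and 4.74 in cko NSCs, whereas the ratio of *Sirt2* to *Cnp* CPM was 1.10 and 1.21 in ctrl and 0.89, 0.82 and 0.81 in cko NSCs. Neither pair of ratios overlapped between genotypes, and the ratios were not tested. The part of the oligodendrocyte lineage in the fall of *Sirt2* was not tested.

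**Figure D4:**
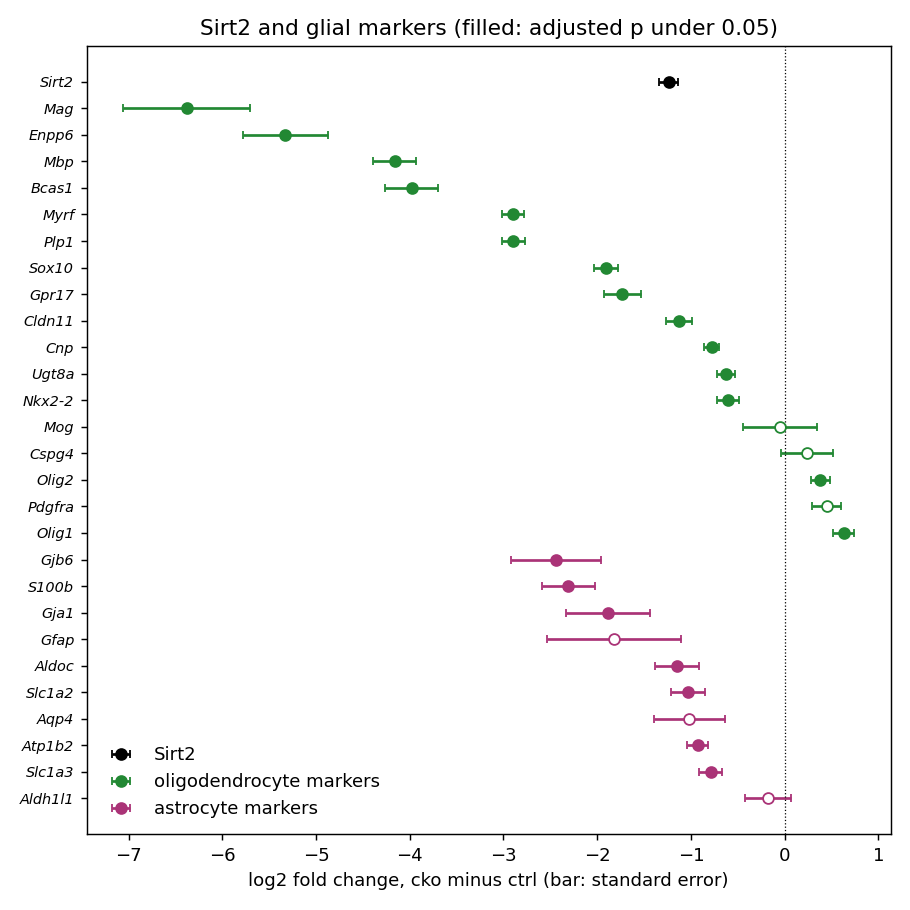
log2 fold change of cko minus ctrl with its standard error for *Sirt2* (black), the 17 tested oligodendrocyte markers (green) and the 10 astrocyte markers (purple), with filled points for an edgeR adjusted p under 0.05. *Sirt2* at -1.24 lies among the markers, between *Gpr17* at -1.73 and *Cldn11* at -1.12 of the oligodendrocyte list, while *Olig1* and *Olig2* lie above 0. In the astrocyte list *Sirt2* falls between *Gfap* at -1.82 and *Aldoc* at -1.15. The point of *Mag* depends on the prior count, since its cko counts were 0 to 2.

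Other cell markers also differed between genotypes, where 7.86% of all tested genes were higher and 8.57% lower. Astrocyte markers were lower in 7 of 10, with summed levels of 5018 and 5787 CPM in ctrl and 2333 to 3375 CPM in cko NSCs, and cycling cell markers were higher in 9 of 10, with 913 and 1052 CPM against 1880 to 2492 CPM. Of 10 NSC markers, 3 were higher and 1 lower, and all 10 passed the filter on low counts. The higher ones were *Nes* (0.98), *Hes5* (0.93) and *Prom1* (0.70), and the lower one was *Hes1* (-1.04), given as log2 fold changes. The NSC markers *Sox2* (556 to 625 CPM over the 5 libraries), *Pax6* (44.9 to 51.9 CPM) and *Fabp7* (1846 to 2413 CPM) were not called. They were detected in every library, beside the glial markers. Of 9 tested neuron markers, 2 were higher and 1 lower, and of 3 tested meningeal fibroblast markers, 1 was higher and 1 lower. None of 3 tested endothelial and mural markers was called and none of 8 microglia markers passed the filter, with *Cx3cr1*, *Tmem119* and *Cdh5* at 0 in all 5 libraries. The part of these cells in the sirtuin results was not tested.

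The genes with the pattern most like that of *Sirt2* were found by the root mean square difference of log2 CPM over the 5 libraries, each gene centred on its own mean. They were *Mylip*, a ubiquitin ligase gene of the LDL receptor (0.049), *Lxn*, a carboxypeptidase inhibitor (0.056), *Ptpre*, a tyrosine phosphatase (0.056), *Irs2*, an insulin receptor substrate (0.058), and *Cdkn2b*, an inhibitor of cyclin D-dependent kinases (0.067). The median difference over all tested genes was 0.65. *Irs2*, for example, stood at 171 and 181 CPM in ctrl and at 88.0, 75.3 and 77.2 CPM in cko NSCs. Nearest to *Sirt3* were *Gm15893* (0.029), *Spata1* (0.032), *Grtp1* (0.032), *1700124L16Rik* (0.032) and the kinase gene *Ulk3* (0.040), beside a median of 0.37. With 5 libraries in 2 groups such likeness is a description.

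SIRT2 shares its α-tubulin substrate with the deacetylase HDAC6, and the acetyl group is placed by the acetyltransferase ATAT1. *Hdac6* stood at 71.0 and 60.4 CPM in ctrl and at 57.8, 68.4 and 68.9 CPM in cko NSCs (log2 fold change -0.01, edgeR adjusted p = 0.94). *Atat1* stood at 110 and 96.5 CPM in ctrl and at 89.4, 97.2 and 93.5 CPM in cko NSCs (log2 fold change -0.15, edgeR adjusted p = 0.28). Both overlapped between genotypes and neither was called. The ratio of *Sirt2* to *Hdac6* CPM went from 7.14 and 9.19 in ctrl to 4.39, 3.02 and 3.12 in cko NSCs, and that of *Sirt2* to *Atat1* CPM from 4.59 and 5.75 to 2.84, 2.13 and 2.296.

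The zinc-dependent deacetylases, the other family of lysine deacetylases, numbered 11 tested genes, of which 2 were higher and 1 lower, beside 7.86% and 8.57% of all tested genes, with a median log2 fold change of -0.015. *Hdac1*, a catalytic subunit of nuclear corepressors, rose from 89.8 and 80.8 CPM to 107, 116 and 111 CPM (log2 fold change 0.38, edgeR adjusted p = 0.022). *Hdac2*, its close relative, rose from 164 and 173 CPM to 217, 218 and 220 CPM (log2 fold change 0.37, edgeR adjusted p = 0.014). *Hdac11* fell from 16.6 and 20.1 CPM to 12.7, 12.2 and 11.6 CPM (log2 fold change -0.59, edgeR adjusted p = 0.026). None of the 11 was called when cko 2 or cko 3 was left out. The calls over all genes fell there too, from 1314 higher and 1432 lower to 317 and 416 without cko 2. Without cko 3 they were 336 and 457.

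Of 31 listed genes of NAD supply and use, 22 were tested, 0 were higher and 3 were lower, where 7.86% of all tested genes were higher and 8.57% lower, with a median log2 fold change of -0.16. A share of 3 in 22 is near the 16.4% called over all genes and is no result about the list. *Nadk2*, the mitochondrial NAD kinase, fell from 159 and 182 CPM to 96.1, 67.4 and 67.2 CPM (log2 fold change -1.15, edgeR adjusted p = 0.0052). *Naprt*, which starts NAD synthesis from nicotinic acid, fell from 4.28 and 4.16 CPM to 1.23, 1.67 and 1.56 CPM (log2 fold change -1.49, edgeR adjusted p = 0.0088). *Cd38*, an NAD hydrolase, was near the limit of detection with 33 and 18 counts in ctrl and 2, 2 and 0 counts in cko NSCs, and the pooled level in ctrl was 19.3 times that in cko NSCs (exact 95% interval 7.09 to 73.5, counting error only). *Nampt*, the rate-limiting enzyme of NAD salvage, stood at 43.8 and 69.8 CPM in ctrl and at 54.4, 54.3 and 56.4 CPM in cko NSCs (log2 fold change -0.04, edgeR adjusted p = 0.89), so its cko libraries lay between the ctrl libraries. With cko 1, cko 2 or cko 3 left out, 4, 2 and 3 genes of this list were called. The calls over all genes fell from 1314 higher and 1432 lower in these settings. They were 853 and 907 without cko 1, 317 and 416 without cko 2, and 336 and 457 without cko 3.

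Among the partners and substrates of the nuclear and cytosolic sirtuins, 31 of 32 listed genes were tested, 4 were higher and 4 lower, beside 7.86% and 8.57% of all tested genes, with a median log2 fold change of 0.030. The higher ones were *Cdc20* (1.26), *Bub1b* (1.09), *Rbbp8* (0.82) and *Notch1* (0.49), given with their log2 fold changes. *Bub1b*, a mitotic checkpoint kinase gene whose protein SIRT2 deacetylates, rose from 45.5 and 49.9 CPM to 85.4, 111 and 109 CPM (edgeR adjusted p = 0.0029). *Cdc20*, an activator of the anaphase-promoting complex, rose from 50.9 and 62.5 CPM to 117, 151.02 and 140 CPM (edgeR adjusted p = 0.0024). These are genes of dividing cells, and the cycling cell markers rose beside them, whose part was not tested. *Notch1*, the receptor whose intracellular domain SIRT1 deacetylates, rose from 386 and 358 CPM to 497, 535 and 537 CPM (edgeR adjusted p = 0.0087).

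The lower ones were *Hic1* (-1.53), *Srebf1* (-0.77), *Ppargc1a* (-0.75) and *Per2* (-0.68), again as log2 fold changes. *Srebf1*, a transcription factor of lipid synthesis, fell from 289 and 371 CPM to 195, 181 and 206 CPM (edgeR adjusted p = 0.0065). *Per2*, a clock gene, fell from 28.7 and 29.7 CPM to 19.1, 18.9 and 16.5 CPM (edgeR adjusted p = 0.0082). *Hic1*, a repressor of *Sirt1* transcription, was low throughout, at 1.96 and 2.29 CPM in ctrl and at 0.45, 0.98 and 0.73 CPM in cko NSCs (edgeR adjusted p = 0.034). *Ccar2*, an inhibitor of SIRT1, stood at 153 and 136 CPM in ctrl and at 165, 175 and 171 CPM in cko NSCs and did not pass the threshold (log2 fold change 0.24, edgeR adjusted p = 0.083). Without cko 2 or without cko 3, 5 genes of this list were called. Over all genes the calls fell from 1314 higher and 1432 lower to 317 and 416, and to 336 and 457.

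Of the 20 listed substrates of the mitochondrial sirtuins, 18 were tested, 2 were higher and 1 was lower, with a median log2 fold change of -0.13. This is near the 16.4% called over all tested genes and is no result about the list. *Slc25a5*, an ADP/ATP carrier gene, rose from 505 and 614 CPM to 854, 880 and 825 CPM (log2 fold change 0.61, edgeR adjusted p = 0.0092). *Acss1*, the mitochondrial acetyl-CoA synthetase activated by SIRT3, rose from 311 and 235 CPM to 375, 393 and 389 CPM (log2 fold change 0.50, edgeR adjusted p = 0.032). *Aldh2*, an aldehyde dehydrogenase, fell from 73.3 and 62.5 CPM to 47.1, 42.8 and 46.9 CPM (log2 fold change -0.58, edgeR adjusted p = 0.0095). *Sod2*, the superoxide dismutase that SIRT3 deacetylates, stood at 106 and 130 CPM in ctrl and at 99.5, 92.5 and 94.5 CPM in cko NSCs (log2 fold change -0.31, edgeR adjusted p = 0.077). The count of this list was not firm, with 0 calls without cko 2 and 1 without cko 3. Over all genes the calls also fell there, from 1314 higher and 1432 lower to 317 and 416, and to 336 and 457. Messenger RNA levels do not measure the acylation of these proteins.

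**Figure D5:**
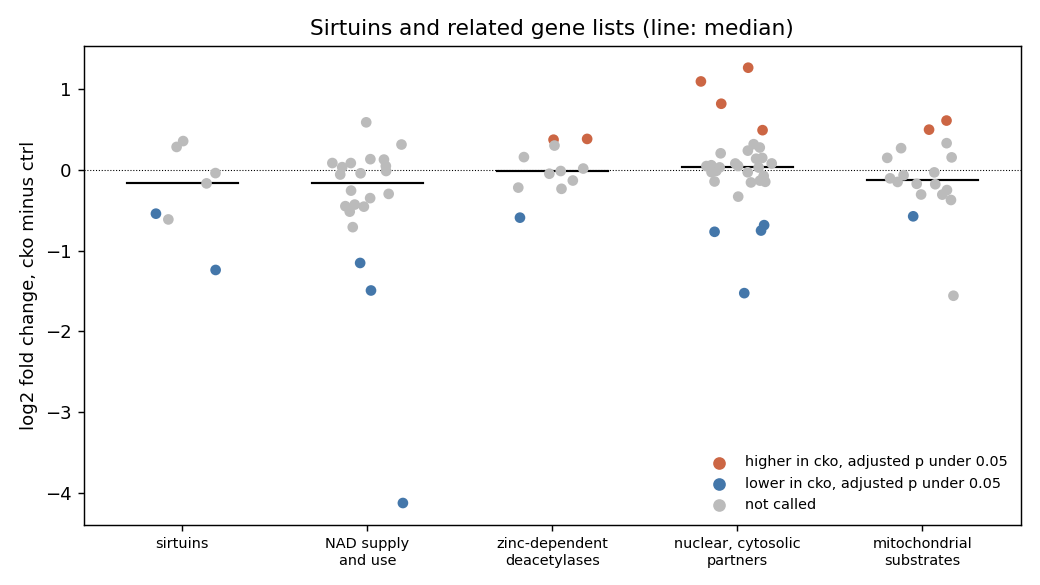
log2 fold change of cko minus ctrl for each tested gene of the sirtuins (7), NAD supply and use (22), zinc-dependent deacetylases (11), nuclear and cytosolic partners and substrates (31) and mitochondrial substrates (18), with a line at each median (-0.17, -0.16, -0.015, 0.030 and -0.13). Orange points were higher and blue points lower at an edgeR adjusted p under 0.05, and the lowest point of the NAD list is *Cd38*, whose fitted value depends on the prior count.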

How the data were processed

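RNA-seq of cultured E14.5 NSCs was analysed from the raw counts per gene that the authors deposited, without normalization. According to the methods, reads were checked with FastQC, filtered with NGSQC and aligned to mm10 with HISAT2, while the submitters' processing notes name GRCm39. The counting tool, gene annotation and strand setting are not given in the sources used here. The column of ctrl 2 holds another kind of value, the rounded-up mean of ctrl 1 and ctrl 3 as deposited, and was used only in alternatives.

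Counts of 5 libraries were tested in R 4.3.3 with edgeR 4.0.16 (filter on low counts by genotype, TMM factors of 0.9901 to 1.006, quasi-likelihood test, Benjamini-Hochberg adjustment over 16710 genes). DESeq2 1.42.0 was an alternative. A count of 3, taken as the limit of detection, was 0.128 to 0.168 CPM. Gene positions and exon lengths were those of GENCODE M21 (GRCm38), where 31836 of 32493 gene IDs were found, and start regions from RefSeq. Scripts were tested on simulated data.

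The members and lists were chosen with earlier results of these data known. Named were all sirtuins, the called genes of each list (at most the 5 with the smallest p in each direction), overlapping or adjacent genes, the 5 genes of the most similar pattern, and *Hdac6*, *Atat1* and *Ptk2*. Genes of the lists that were not called, such as *Nampt*, *Ccar2*, *Sod2*, *Mog*, *Pdgfra*, *Cspg4*, *Ermn*, *Sox2*, *Pax6* and *Fabp7*, were named after their values were seen, as were *Xist* and *Kdm5d*. The markers at 0, *Mobp* in cko NSCs and *Cx3cr1*, *Tmem119* and *Cdh5* in all libraries, were named by rule.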

Additional observations from a re-analysis of the deposited data

How the results depend on the processing

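*Sirt2* kept its direction and its call under 13 of 13 alternatives, with log2 fold changes of -1.34 to -1.17 and a highest adjusted p of 0.016. The number of sirtuins called rose from 2 to 4 without a filter on low counts and in the edgeR, DESeq2 and replicate block analyses of all 6 columns, which count the mean of ctrl 1 and ctrl 3 as a sample, and was 1 with a replicate block on the 5 libraries and 1 to 2 when a library was left out. *Sirt4* and *Sirt7* reversed without ctrl 1, and ranged from -0.10 to 0.017 and from -0.34 to 0.031 when a library was left out. Of the related lists, NAD supply and use went from 3 calls to 6 in each analysis of all 6 columns, and to 2 to 4 when a cko library was left out. The zinc-dependent deacetylases went from 3 to 5 in each analysis of all 6 columns and to 0 with the replicate block on the 5 libraries. They had 0 to 2 calls when a cko library was left out. The nuclear and cytosolic list went from 8 to 13 in the DESeq2 and replicate block analyses of all 6 columns and to 5 to 12 when a library was left out. The mitochondrial list went from 3 to 8 without the filter, and to 6 in edgeR, 7 in DESeq2 and 8 with the replicate block on all 6 columns. It had 0 to 2 calls when a cko library was left out. Without ctrl 1 or without ctrl 3 it had more calls than with all 5 libraries, as did NAD supply and use and all genes together. Those fits leave no replicate in ctrl, so their list counts are not given. The share of *Sirt2* was 81.6% in ctrl and 65.9% in cko NSCs with the length of the longest transcript, and 77.8% and 60.4% with no length. With the longest transcript, 5 of 7 members kept their rank in ctrl NSCs, and with no length 2 kept it in ctrl and 3 in cko NSCs. When a library was left out, 5 to 7 kept their rank in cko NSCs. Where no construction of the alternative shows it, the cause was not tested.

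The replicate block on the 5 libraries ended the call of *Sirt3* (-0.44, adjusted p = 0.13). The genotypes were littermates, but the replicate numbers are tied to no shared litter or day, ctrl and cko share only 2 independent pairs, and the log2 difference of ctrl 1 to ctrl 3 correlated with that of cko 1 to cko 3 at only 0.113 across 16710 genes, which are not independent replicates, so the samples were not taken as paired. Over all genes, the calls in the 5 libraries were 1314 higher and 1432 lower of 16710 tested genes. With the replicate block on the 5 libraries they were 918 and 1065. All 6 columns, with 16322 tested genes, gave 2797 and 2860 in edgeR, 2593 and 2630 in DESeq2, and 2604 and 2745 with the replicate block. Without the filter they were 1838 and 2237, but of 30524 tested genes. They were 853 and 907 without cko 1, 317 and 416 without cko 2, and 336 and 457 without cko 3. Where the count of a list moved with these totals, that is no result about the list. The lowest count of a sirtuin in a library was 132, against a limit of detection of 3. The limits are the 2 independent ctrl libraries, the sex-linked difference and the unstated link of each library to an embryo or litter.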
